A study of Homo sapiens with 2 samples.

Results

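The keratins are the intermediate filament proteins of epithelial cells. On the exon array compared here, 53 keratin genes were read by 504 probesets, out of 18923 genes and 286871 probesets that carried exactly 1 gene symbol in the platform annotation. Members were all genes whose symbol was KRT followed by a number and, in some, a letter from A to C; the choice used no measured value. All 53 symbols are current in RefSeq, and of the 55 current protein-coding keratins of that form, KRT6C and KRT222 had no member probeset. The samples were 1 array of MKN45, a human gastric cancer cell line, and 1 array of MKN45P, its highly metastatic derivative. Both lines were cultured in RPMI 1640 medium with 10% FBS, glutamine, penicillin and streptomycin, and detached with trypsin before RNA was taken. The labels do not say how MKN45P was derived or whether it is a clone. With 1 array per line there was no replicate error and no test; differences are between these arrays, their number limits the precision, and the interquartile range given with a difference is over the probesets of that gene.

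Keratin filaments form only from pairs, each made of an acidic type I and a basic type II chain. Simple epithelia such as that of the stomach and gut build filaments from the simple keratins KRT8 and KRT18, with KRT7, KRT19 and KRT20 added by cell type. Stratified epithelia such as epidermis use KRT5 with KRT14 in basal cells and other pairs, KRT1 with KRT10 among them, in the upper layers. The hair and root sheath keratins build the hair shaft and the sheath around it. Most type II genes and KRT18 lie together on chromosome 12 and the other type I genes on chromosome 17, which held 26 and 27 of the genes.

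Few keratins carried signal in either line, and KRT5 was the only one that differed 2-fold. A gene was said to carry signal where the median of its probesets reached the 75th percentile of all probesets on that array, 2.80 in MKN45 and 2.73 in MKN45P on the log2 scale. Of the 47 keratins with at least 4 probesets, 6 carried signal in MKN45 (KRT5, KRT7, KRT8, KRT18, KRT36 and KRT80) and 5 in MKN45P, the same list without KRT36. That was 12.8% and 10.6%, where 45.2% of all 16937 such genes carried signal in MKN45 and 48.9% in MKN45P. KRT5 was 1.06 log2 units higher in MKN45P, and no keratin was 2-fold lower. Brightness also depends on the probes, so levels of different genes are not set against each other here.

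**Figure D1:**
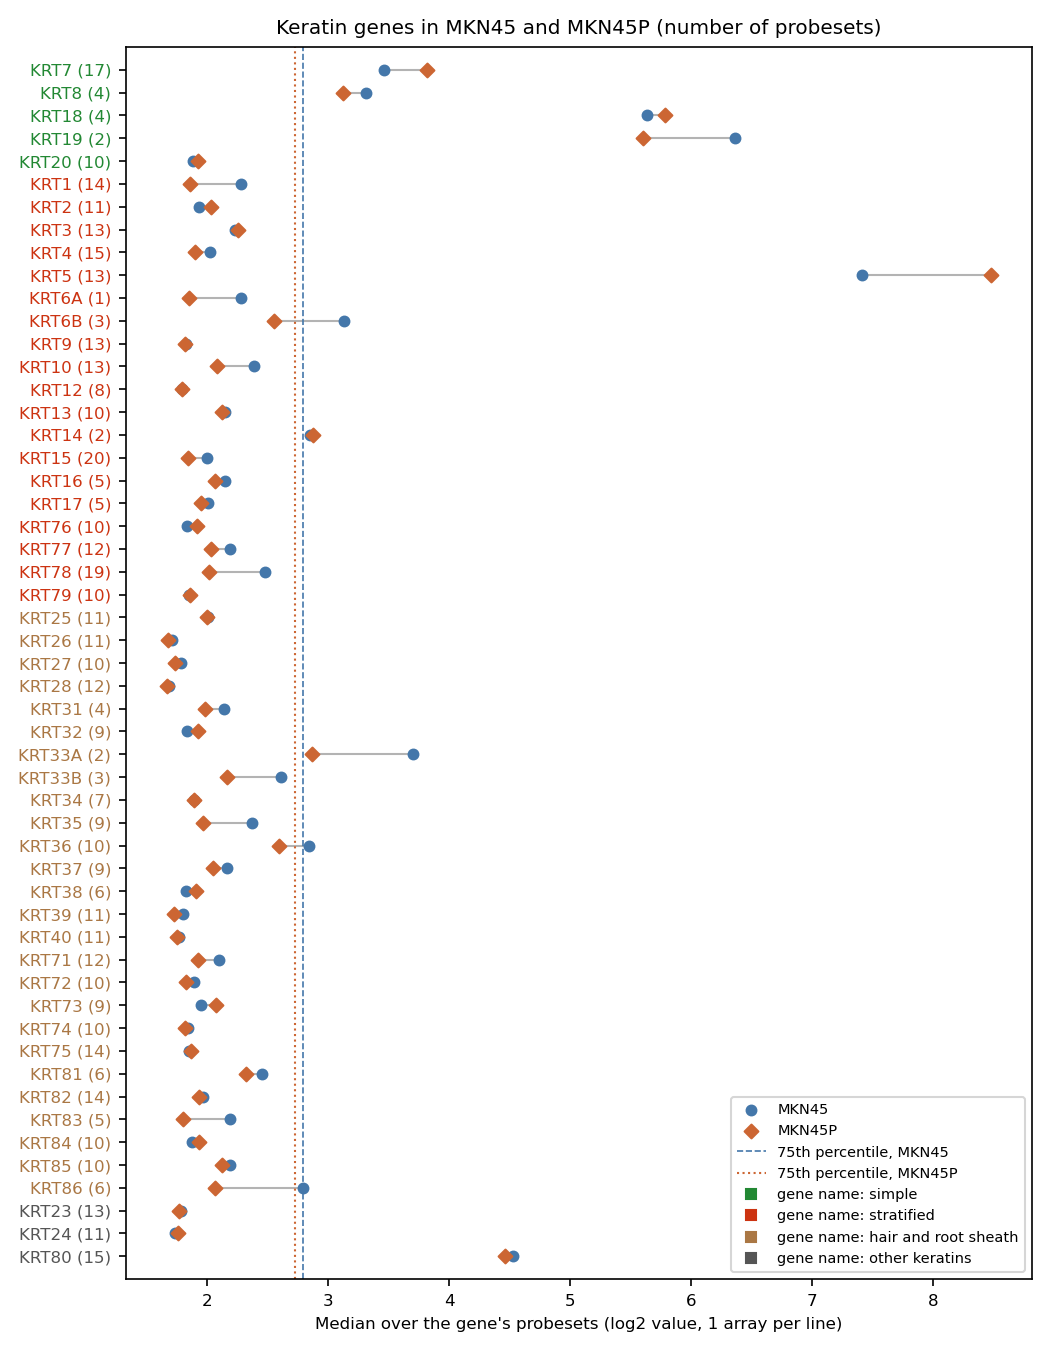
Each row is a keratin gene with its number of probesets; the horizontal axis is the median of its probesets as a log2 value, with circles for MKN45, diamonds for MKN45P and vertical lines at each array's 75th percentile. Most genes lie left of both lines, and KRT5 has the widest gap, 7.41 against 8.47.

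KRT5, the type II keratin of basal cells in stratified epithelia, was clearly above the low end of the scale in both lines and higher in MKN45P. Its median level was 7.41 in MKN45 and 8.47 in MKN45P. Of its 13 probesets 12 were higher in MKN45P, 7 of them 2-fold or more. The median difference was 1.06 (interquartile range 0.86 to 1.398), a ratio of 2.08. Those differences ran from -0.03 to 2.74 and were uneven along the gene. The largest were 4.41 to 7.15 at probeset 3455219 and 5.90 to 8.30 at probeset 3455215. The brightest probeset in MKN45, 3455230, went from 10.44 to 11.08, and the dimmest, 3455237, stayed at 1.77 in both arrays. Over the 12 probesets with signal (those averaging at least 2.77 over the arrays) the median difference was 1.15.

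The size of the KRT5 difference placed it just past the 2-fold line. Measured genes had at least 4 probesets and a level, as the mean of both arrays, of at least 1.92, the median over all probesets. A gene could lie below 1.92 in 1 of the lines. Among 13130 measured genes, 4.58% were 2-fold or more higher in MKN45P and 1.2% were 2-fold or more lower. Of 28 measured keratins, 1 (3.57%) was 2-fold higher and 0 were 2-fold lower, a share near the background. With no filter on level, 3.55% and 0.927% of genes with at least 4 probesets were 2-fold higher and lower, and of 47 keratins 1 and 0. A difference at least as large as that of KRT5 was found in 4.01% of measured genes. It was 1.01 after quantile normalization and 0.92 after loess, the latter short of 2-fold.

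The genes next to KRT5 on either side in the chromosome 12 cluster did not share its difference. KRT6A had 1 probeset, at 2.28 in MKN45 and 1.85 in MKN45P, and KRT71, a root sheath keratin, had levels of 2.10 and 1.93 with a difference of -0.10. Apart from KRT5, the 17 measured keratins of chromosome 12 ran from -0.39 (KRT83) to 0.06 (KRT73), and the 10 of chromosome 17 from -0.19 (KRT17) to 0.01 (KRT31). The 250 bases before the start of KRT5 and of KRT71 are shown because these neighbours, on the same strand, differ in signal and in their difference between the lines. Both are from RefSeq on GRCh38.p14, minus strand, at chr12:52520395-52520644 for KRT5 and chr12:52553146-52553395 for KRT71. Capitals mark matches, on either strand, to the TATA box forms TATAAA or, with its first base left off, ATAAAA and to the short element named CACCC.
KRT5: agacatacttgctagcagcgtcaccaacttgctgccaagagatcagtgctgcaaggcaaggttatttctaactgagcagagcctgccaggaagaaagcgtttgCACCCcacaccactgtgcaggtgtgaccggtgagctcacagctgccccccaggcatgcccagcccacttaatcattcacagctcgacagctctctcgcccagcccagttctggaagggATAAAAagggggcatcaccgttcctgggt
KRT71: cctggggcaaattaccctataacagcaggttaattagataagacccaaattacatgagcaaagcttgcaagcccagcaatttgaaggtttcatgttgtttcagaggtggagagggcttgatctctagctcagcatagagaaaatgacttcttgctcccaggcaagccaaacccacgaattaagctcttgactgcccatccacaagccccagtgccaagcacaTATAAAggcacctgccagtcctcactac

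KRT5 held ATAAAA at 29 bases and CACCC at 147 bases before the start, and KRT71 held TATAAA at 28 bases. Over 35093 promoters of this length, the share with TATAAA was 10.7%, and the share of promoters that held the form ATAAAA was 14.8%, where a sequence can hold both at overlapping positions. Of the same promoters 54.7% held CACCC. Among the 34 keratins with a promoter in the table, 21 held TATAAA, 23 ATAAAA and 28 CACCC. Also searched were GGGCGG (42.6% of promoters, 4 keratins), TGANTCA (6.57%, 0 keratins) and GCCNNNGGC (19.8%, 5 keratins), and none of these was in either of the sequences shown. A match of these letters is a description and not a binding site.

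**Figure D2:**
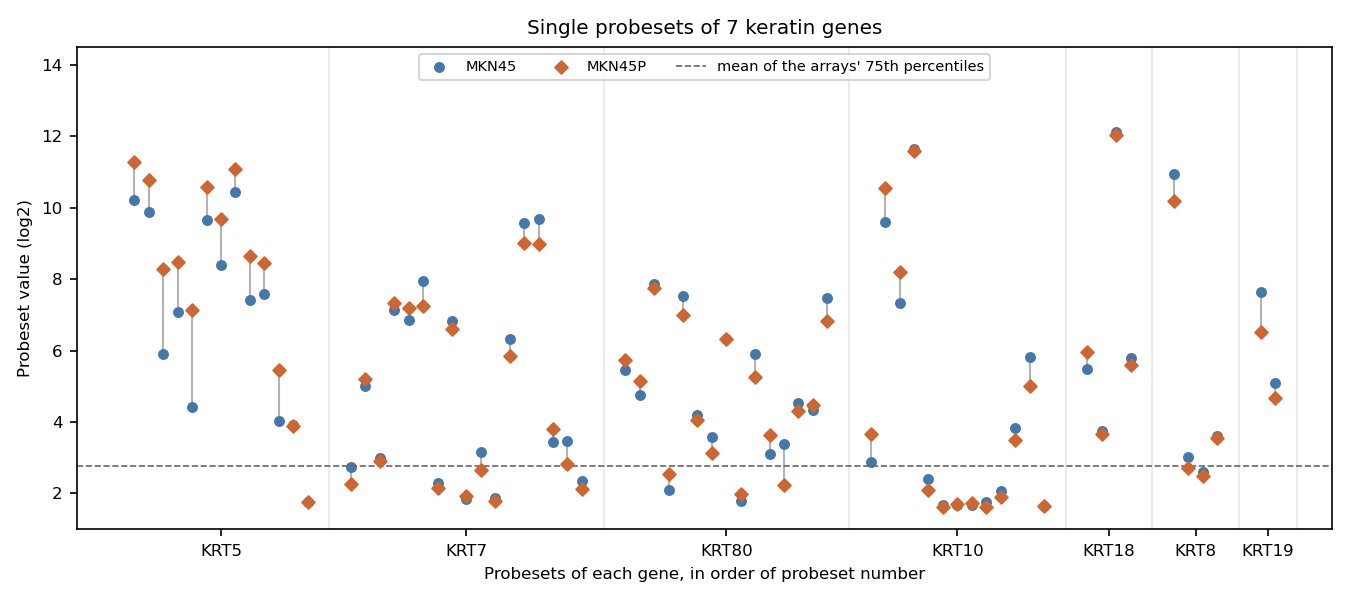
Each pair of points is a probeset, in order of its number within the gene; the vertical axis is its log2 value, with circles for MKN45 and diamonds for MKN45P. In KRT5 12 of 13 diamonds lie above their circles, while in KRT7, KRT8, KRT18, KRT19 and KRT80 most diamonds lie below; KRT10 is shown too, and the dashed line is the mean of the arrays' 75th percentiles.

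The type I partner of KRT5 in basal cells, KRT14, gave no such difference at the probesets available. KRT14 had 2, at 1.66 and 4.04 in MKN45 and 2.25 and 3.50 in MKN45P, so 1 was higher and 1 lower. KRT15, another basal type I keratin, had 20 probesets, with levels of 2.004 and 1.85 and a difference of -0.08 (-0.29 to -0.02). KRT16 and KRT17, induced in wounded and proliferating epidermis, were at 2.15 and 2.01 in MKN45 and 2.06 and 1.95 in MKN45P. All lay below the signal threshold except KRT14, whose medians of 2.85 and 2.88 rest on 1 dim and 1 brighter probeset. KRT14, KRT16 and KRT17 are near-identical over long stretches, so their values are uncertain. Mesothelium and basal squamous cells also make KRT5. Of 7 measured mesothelial markers, MSLN (0.34) and CALB2 (0.48) were above 0 and 5 were below, WT1 (-0.59), UPK3B (-1.06), PDPN (-0.32), DES (-0.12) and LRRN4 (-0.01), with a median of -0.12. Of the squamous markers besides keratins, TP63, a transcription factor of basal cells, was near the low end at 1.88 and 1.87. DSG3, a desmosomal cadherin, was at 1.74 and 2.38, below the threshold in both lines, with a difference of 0.44 and 23 of 26 probesets higher in MKN45P. SERPINB5 was at 3.34 and 2.24 with a difference of -0.52. The part of such cells in the KRT5 difference was not tested.

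The simple keratins other than KRT20 carried signal in both lines, and their gene medians stayed within 2-fold. KRT18, the type I chain found in all simple epithelia, had 4 probesets, whose medians were 5.63 in the MKN45 array and 5.78 in the MKN45P array. Its difference was -0.08 (-0.11 to 0.06), and its brightest probeset was at 12.13 and 12.04, where the highest values of the arrays were 13.48 and 13.45. Its partner KRT8, also with 4 probesets, had levels of 3.31 and 3.13 and a difference of -0.21 (-0.43 to -0.10). All 4 KRT8 probesets were lower in MKN45P, the brightest at 10.95 and 10.18. The other 3 KRT8 probesets lay between 2.59 and 3.61 in MKN45, so the median of this gene reflects its dim probesets. KRT8 and KRT18 overlap in the RefSeq annotation.

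KRT7, the type II keratin of ductal epithelia, was read at 17 probesets and was slightly lower at most of them. Its median levels were 3.46 in MKN45 and 3.82 in MKN45P, but the median of its probeset differences was -0.21 (-0.49 to 0.09), and 12 of 17 probesets were lower. The direction of this gene therefore depends on the summary. Its brightest probesets were at 9.68 and 9.56 in MKN45 and at 8.99 and 9.02 in MKN45P, and over the 12 with signal the median difference was -0.34. Of the 17, 2 carry numbers in the run that holds most other chromosome 12 keratins, and without them the difference was -0.16. The other 15 share a run with all 4 probesets of KRT18 and 5 of the 6 of KRT86.

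KRT19, the smallest keratin and a marker of simple and ductal epithelium, was lower at both of its probesets. They were at 7.63 and 5.09 in MKN45 and at 6.52 and 4.68 in MKN45P, a median difference of -0.76, on too few probesets to count as measured. The brighter was past 2-fold lower (-1.11), and the dimmer was at -0.40. KRT20, the keratin of intestinal and gastric surface cells, did not reach the threshold in either line, at 1.89 and 1.93 over 10 probesets (difference 0.02, -0.06 to 0.08). The median over the 3 measured simple keratins, KRT7, KRT8 and KRT18, was -0.21, beside 0.03 over all measured genes. With the difference between median levels in place of the median of differences it was 0.15, so no direction holds for this class.

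Processed copies of the simple keratins were also bright at some probesets. Of 46 probesets annotated to 14 KRT18 pseudogenes, 9 carried signal, KRT18P28 the highest at 8.59 in MKN45 and 8.004 in MKN45P. Of all 286871 probesets with exactly 1 symbol, 139760 carried signal, which is a larger share. A probeset of KRT19P2 went from 6.69 to 4.26. KRT8 and KRT18 RNA can bind the probes of such copies, and the reverse, so the values of these genes are uncertain.

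KRT80, a type II keratin of many epithelia, carried signal at most of its probesets in both lines. Its levels were 4.53 in MKN45 and 4.46 in MKN45P, with a difference of -0.11 (-0.49 to 0.22) over 15 probesets. Of these 6 were higher in MKN45P, and the brightest was at 7.87 and 7.76. KRT23, a type I keratin found in gut and pancreatic tumours, was near the low end, at 1.79 and 1.77, apart from probeset 3756612, which went from 3.71 to 1.92. KRT24 was at 1.74 and 1.76, with probeset 3756427 at 7.44 and 6.25.

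**Figure D3:**
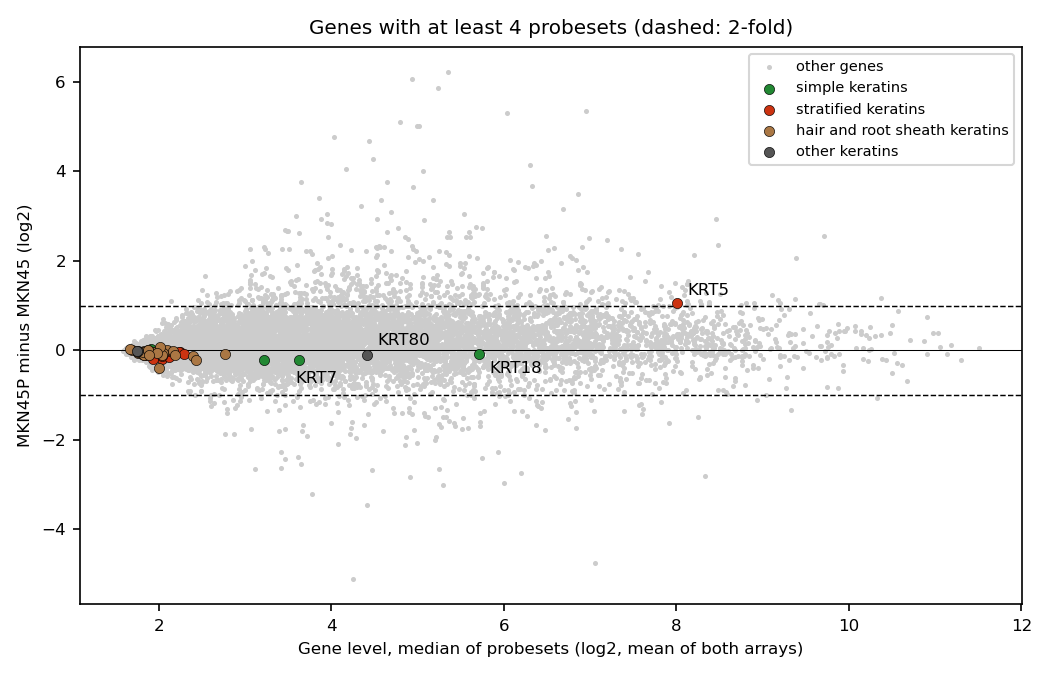
Each point is a gene with at least 4 probesets; the horizontal axis is its log2 level (mean of both arrays) and the vertical axis the MKN45P minus MKN45 difference in log2 units, keratins coloured by class and dashed lines at 2-fold. KRT5 (1.06) lies past the upper line, and the other 46 keratins lie between -0.39 and 0.06, most of them at the low end of the scale.

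Of the 19 stratified keratins only KRT5 carried signal among those with at least 4 probesets. Of the 19, 16 had at least 4 probesets and 12 were measured, of which 11 had a difference below 0, where 45.1% of all measured genes did. Those 11 all had a level under 2.77, where 57.7% of measured genes were below 0. The median of the 12 was -0.07 and their range -0.20 to 1.06. KRT1 and KRT10, the pair of differentiated epidermal cells, were at 2.29 and 2.39 in MKN45 and at 1.86 and 2.08 in MKN45P. KRT4 and KRT13, the pair of moist stratified epithelia such as oesophagus, had differences of -0.05 and -0.15. Most of their probesets were dim. Over probesets with signal, 2 of 15 in KRT4 and 3 of 10 in KRT13, the medians were -1.09 and -0.55. KRT6B, on 3 probesets, had levels of 3.14 and 2.55 and a difference of -0.58, and it is near-identical to KRT6A and KRT6C.

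KRT10 did not behave as a uniform gene, and it is described here because its values drew attention. Only 6 of its 13 probesets carried signal, so its median difference of -0.05 comes from dim ones. At 3 neighbouring numbers it was higher in MKN45P: 3756525 went from 2.88 to 3.67, 3756526 from 9.59 to 10.55 and 3756527 from 7.33 to 8.19. The next, 3756528, was at 11.65 and 11.59. Probeset 3756540 was lower, at 5.83 and 5.00, and the remaining one with signal, 3756539, was at 3.83 and 3.51. The 3 that were higher each fell short of 2-fold, and the median over the 6 was 0.36.

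Hair and root sheath keratins were near the low end of the scale in both lines. Of 26 genes, 24 had at least 4 probesets, 12 were measured, and none of these was 2-fold higher or lower; the median difference was -0.07 and the range -0.39 to 0.06. KRT36, a hair keratin, was just inside the threshold in MKN45 at 2.84 and outside it in MKN45P at 2.60, with a difference of -0.09 (-0.32 to -0.02). KRT86 was just outside in MKN45 at 2.79 and was at 2.07 in MKN45P. That gene held a probeset, 3415383, at 11.33 and 11.25 while its other 5 were at 3.03 or below in MKN45. KRT86 and KRT81 overlap in the annotation. KRT33A, on 2 probesets, was at 3.71 and 2.87 with a difference of -0.83; it is near-identical to KRT33B. KRT83 had the lowest difference of the measured keratins, -0.39 (-0.999 to -0.23), and was lower at all 5 of its probesets.

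Isolated bright probesets were found in keratins that carried no signal as genes. Of 41 such keratins, 13 (31.7%) held at least 1 probeset in the top 10% of an array, where 39.5% of all 8139 genes without signal did. There were 19 such probesets, and 10 of the 13 genes had exactly 1. KRT3, the corneal keratin, had 3 of 13, the brightest at 8.30 in MKN45 and 7.98 in MKN45P. KRT13 had 1 of 10, at 9.16 and 8.61, and KRT9, the keratin of palm and sole, 1 of 13, at 7.47 and 6.99. Of the 19, 16 were lower in MKN45P and 5 were 2-fold lower; of the 5781 such probesets of all genes without signal, 69.3% were lower and 21.0% were 2-fold lower. The largest was probeset 3455634 of KRT74, a root sheath keratin, at 6.88 and 3.76, chosen after its values were seen. The nature of these probesets was not tested.

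Apart from KRT5, keratin differences were mostly below 0. With no filter on level, 39 of the 47 keratins with at least 4 probesets (83.0%) had a difference below 0, where 49.4% of all 16937 such genes did. The difference was under 0.25 in either direction in 45 of the 47. The same share over all genes was not taken, so this count has no background beside it. At the low end of the scale MKN45P values were lower in general: among measured genes with a level under 2.77, 57.7% were below 0, and of keratins there 20 of 22. At or above 2.77 the share was 37.2%, and 5 of 6 keratins were below 0. Among probesets with signal, 94 of the 120 keratin probesets outside KRT5 (78.3%) were lower, with a median of -0.32, where 45.1% of all probesets with signal were lower and their median was 0.10. Most of the 120 were in keratins that carried no signal as genes. Over all genes without signal, 69.3% of the probesets in the top 10% were lower, so 45.1% is not a matched share. Probesets of a gene share its RNA and are not independent. Of the 132 keratin probesets with signal, 7 were 2-fold higher, all in KRT5 (5.3%, against 17.0% of all), and 10 were 2-fold lower, each in a different gene (7.58%, against 7.93%). The count of keratins below 0 among those measured was 25 of 28 (89.3%, against 45.1% of all measured genes), and 22 to 26 of 28 under the scalings and with the difference of median levels.

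Genes listed as anchors or organisers of keratin filaments did not pass 2-fold, and their differences spread to both sides. The list also held AGR2 and KRTCAP3, whose place in it is uncertain. The list of 25 had 24 genes on the array and 21 measured, 0 of them 2-fold higher and 0 lower, with a median of -0.01 (interquartile range over genes -0.46 to 0.06). Of all measured genes 4.58% were 2-fold higher and 1.2% lower, so 0 in a list this short is near the background. ITGB4, the hemidesmosome integrin chain that links keratins to the basement membrane, was at 9.47 in MKN45 and 8.60 in MKN45P. Its difference was -0.996, just short of 2-fold. DSP, the desmosomal plakin that binds keratins, went from 7.21 to 5.91 with a difference of -0.96. DSG2 (0.64) and COL17A1 (0.55), named here outside the naming rule, were among the members above 0. ITGB4 was past 2-fold after quantile normalization (-1.10), after loess (-1.06) and after centring on probesets with signal (-1.03), and DSP after quantile normalization (-1.04) and by the difference of median levels (-1.30). Over probesets with signal only, ITGB4 (-1.01), DST (-1.25) and DSG3 (1.88) passed it.

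Among the measured squamous differentiation genes and regulators of epithelial genes, SFN was the only one past 2-fold. Of 10 measured cornified envelope and squamous genes, SFN, which encodes 14-3-3 sigma, was lower. It was at 5.46 in MKN45 and 4.12 in MKN45P, with a difference of -1.41 (-1.71 to -0.82). The median of that list was -0.06, and none was 2-fold higher. SPRR1A, a cornified envelope precursor with 2 probesets and so not counted as measured, was at 4.18 and 2.43, a difference of -1.75, and KLK5 was at -1.15 over probesets with signal only. Of all measured genes 4.58% were 2-fold higher and 1.2% lower. Among 16 measured transcription factors 0 passed 2-fold in either direction and the median was 0.01. The largest differences were those of the grainyhead factors GRHL1 (0.65, levels 1.97 and 2.67) and GRHL2 (0.64, levels 4.76 and 5.19); over probesets with signal only GRHL1 was at 1.74.

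**Figure D4:**
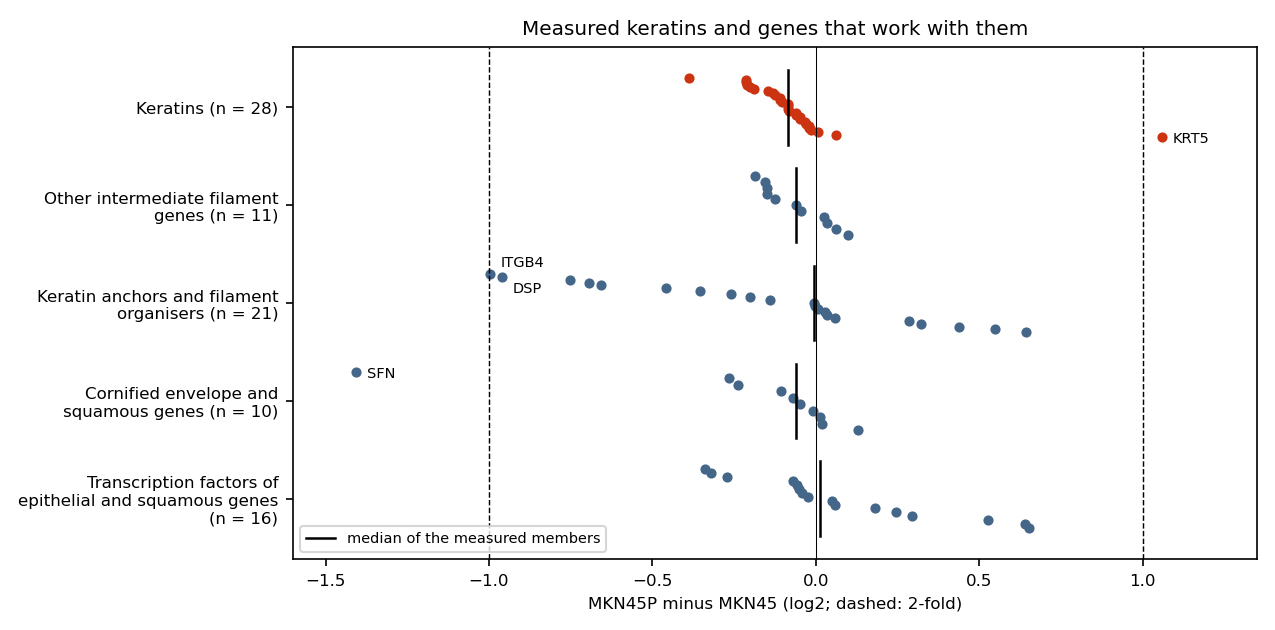
Each point is a measured gene, placed by its MKN45P minus MKN45 difference in log2 units; rows are the keratins and 4 lists, black bars are medians and dashed lines mark 2-fold. KRT5 (1.06) and SFN (-1.41) are the points outside the dashed lines, with ITGB4 and DSP just inside.

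No measured gene of the other intermediate filament classes was past 2-fold. Of 11 measured genes of other filament classes none passed it, where 4.58% of all measured genes were 2-fold higher and 1.2% lower. The median was -0.06. The largest differences were those of the nuclear lamins LMNB1 (-0.19, levels 5.86 and 5.70) and LMNB2 (-0.16, levels 6.89 and 6.97). VIM, the filament gene of mesenchymal cells, named here outside the naming rule, was near the low end at 1.85 and 1.79. Of 76 keratin-associated protein genes, 9 had at least 4 probesets, 0 of these carried signal, and 1, KRTAP11-1, was measured (-0.18). Among the others, KRTAP6-1, with 2 probesets, was at 5.64 and 4.495, a difference of -1.15.

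The epithelial identity of both lines was checked by markers. All 8 epithelial markers carried signal in both and were higher in MKN45P, with a median difference of 0.53. Of these, CLDN4 (0.19) was higher at only 3 of 6 probesets, and CLDN7 (1.14) and ESRP1 (1.04) were 2-fold higher. Among measured genes with a level at or above 2.77, 37.2% were below 0, and 4.58% of all measured genes were 2-fold higher. EPCAM and CDH1, which define epithelial cells, had differences of 0.83 and 0.55. The part of epithelial content in the KRT5 difference was not tested. Of 11 gastric markers with at least 4 probesets, 4 carried signal in each line, but not the same 4. VSIG1 did so in MKN45 only, at 6.82 and 1.80 (-5.11), and ANXA10 in MKN45P only, at 2.32 and 4.39 (2.17); the median of the 8 measured was -0.26. Signal was found for 4 of 8 mesothelial markers in each line and 2 of 8 endothelial ones. Over all genes with at least 4 probesets the share with signal was 45.2% in MKN45 and 48.9% in MKN45P. Of 8 fibroblast markers 1 carried signal in MKN45 and 2 in MKN45P, with FBLN1 (1.10) past 2-fold. Of 7 immune markers 1 carried signal in MKN45 and 0 in MKN45P. That 1 was NKG7, with levels of 3.12 and 2.50 and a difference of -0.62. PTPRC, CD3E, CD14, TYROBP, CORO1A and LYZ were below the threshold in both.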

How the data were processed

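Total RNA of each line was depleted of ribosomal RNA, amplified with a whole-transcript kit and labelled with biotin, per the labels' protocols. The authors deposited 1 log2 value per probeset and array; the base was read from the values, whose highest was 13.48. Partek and hg18 are named in the submitters' processing notes. How background, probes and arrays were treated before that is not stated in these sources. Values were used as deposited; they compress differences near the low end, and the number of arrays limits the precision.

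Gene symbols came from GEO's platform annotation; probesets with several symbols or none were left out. Current names, gene order and promoter sequences came from RefSeq (GRCh38.p14). A gene's difference was the median over its probesets of MKN45P minus MKN45. Measured genes had at least 4 probesets and a level at or above 1.92.

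The members, lists and measures were chosen with earlier results of these data known. Named were keratins with signal or past 2-fold, the simple keratins, keratins next to a threshold, and members of the comparison lists past 2-fold or, where there were none, the 2 largest; others are marked or serve as class examples.

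Steps were tested on simulated data. Python 3.11.15, numpy 2.4.6, pandas 2.3.3 and statsmodels 0.14.6 were used. Alternatives were 3 scalings, other summaries, probeset minimums, level filters and signal thresholds.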

Additional observations from a re-analysis of the deposited data

How the results depend on the processing

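With 1 array per line no array could be left out. No paired analysis was possible because the lines share only 1 replicate number. KRT5 stayed higher in MKN45P in all 9 alternatives, from 0.92 to 1.15. The probeset minimums and the level filter only change which genes count, so KRT5 stayed at 1.06 there by construction. The count of keratins 2-fold higher was 1 in all but loess, where it was 0. The count 2-fold lower was 2 (KRT4 and KRT83) of 23 over probesets with signal only and 0 otherwise. In that setting 3.21% of all 12205 genes were 2-fold lower. It needed at least 2 probesets with signal, and KRT4 and KRT83 each had 2. Keratins with only 1, KRT74 among them, were left out. Keratins with signal numbered 6 in MKN45 and 5 in MKN45P; they were 10 and 10 with the mean of probesets, 10 and 8 with at least 2 probesets, 2 and 2 at the 90th percentile, and 28 and 29 at the median of all probesets. With at least 8 probesets there were 3 in MKN45P, and with the upper quartile of probesets, an alternative chosen after seeing the data, 19 and 16. Of all 16937 genes, 2718 and 3129 carried signal at the 90th percentile, 76.7% and 77.3% at the median, and 64.8% and 65.6% with the upper quartile. For the mean and the probeset minimums the share of all genes was not taken, so those counts have no background beside them. Keratins with a difference below 0, counted after seeing the data, were 25 of 28 and, with no filter on level, 39 of 47. A class median was taken as moved where it shifted by more than the semi-interquartile range of its members. The median of simple keratins was then -0.14 with quantile normalization, -0.10 with loess, -0.10 with the mean, 0.15 with the difference of median levels, -0.32 over probesets with signal and -0.15 with no filter on level. That of stratified keratins was -0.15 with the mean and -0.42 over probesets with signal, and that of hair and root sheath keratins -0.14, -0.24 and, with the difference of median levels, -0.14. Values of a named gene could not change under the probeset minimums or the level filter, so their sign was fixed there. Of 111 values of named keratins under the alternatives, these fixed ones included, 103 kept their sign. The exceptions were in KRT7, KRT10, KRT14, KRT18 and KRT20. The cause was not tested.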
